A study of Mus musculus with 24 samples.

Results

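Small RNA sequencing of mouse subcutaneous adipose tissue gave 24 libraries, of which 7 carried far more miR-150-5p than the other 17. Those 7 libraries were selected on that measured value: at or above 2000 counts-per-million (CPM), the count of a locus scaled by its library's total count. The nearest library above that line had 3547 CPM of miR-150-5p and the nearest below it had 911 CPM. In the 7 the level ran from 3547 through a median of 6002 to 7557 CPM, and in the 17 from 497 through 707 to 911 CPM. These values chose the sets and are given as a description.

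All mice were female and fed chow. They were wild type (WT) or kinase dead (KD, carrying a kinase without activity; the sources used here do not name the kinase or the cells affected), and either sedentary or trained, with 6 libraries in each of the 4 groups. Trained mice ran on a motorised treadmill for 1 hour on 5 days a week over 6.5 weeks at 16 m/min, and also had a running wheel. The 7 libraries came from every group: WT sedentary replicate 1, WT trained replicates 1 and 2, KD sedentary replicates 5 and 6, and KD trained replicates 3 and 6. No association of membership with genotype (4 KD and 3 WT, two-sided Fisher's exact test, p = 1) or training (4 trained and 3 sedentary, p = 1) was detected.

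MicroRNAs are short RNAs that pair with messenger RNAs mainly through a seed, bases 2 to 8 from the 5′ end, and lower the output of those messengers. Many are made by few cell types, so a tissue's miRNA profile also reflects its cells. miR-150 is abundant in mature B and T lymphocytes. miR-142 is made across blood cell lineages, miR-155 and miR-146a are induced when immune cells are activated, and miR-342 is high in lymphoid cells. Subcutaneous fat holds adipocytes, vessels, fibroblast-like stromal cells and resident immune cells, and some depots enclose lymph nodes. In bulk tissue, more cells of a type and more RNA per cell cannot be told apart.

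The sequences below, from RefSeq on GRCm38.p6, are those on which the comparison of the sets turns. Seeds are in capitals. The first group holds miRNAs of immune cells in which all 7 libraries lay above all 17.
miR-142a-5p: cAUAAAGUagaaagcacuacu
miR-142a-3p: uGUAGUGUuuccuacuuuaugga
miR-155-5p: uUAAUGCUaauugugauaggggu
miR-342-3p: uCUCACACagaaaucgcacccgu
miR-146a-5p: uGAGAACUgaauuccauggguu
miR-150-3p: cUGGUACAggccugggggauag

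The second group shares the seed AAAGUGC and comes from 3 clusters on chromosomes X, 14 and 5. All 6 were higher in the 7 libraries.
miR-20b-5p: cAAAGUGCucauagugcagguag
miR-106a-5p: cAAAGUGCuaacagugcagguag
miR-20a-5p: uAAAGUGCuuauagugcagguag
miR-17-5p: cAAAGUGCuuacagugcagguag
miR-106b-5p: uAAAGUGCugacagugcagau
miR-93-5p: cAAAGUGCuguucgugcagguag

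The third group shares the seed AGCAGCA, and its members went in both directions. miR-15b-5p and miR-16-5p were higher in the 7, and miR-195a-5p and miR-497a-5p were lower.
miR-15b-5p: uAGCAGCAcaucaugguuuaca
miR-16-5p: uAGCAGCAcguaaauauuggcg
miR-195a-5p: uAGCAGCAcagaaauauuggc
miR-497a-5p: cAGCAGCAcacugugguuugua

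The sets overlapped in depth. Totals ran from 3917134 to 13682683 reads (median 4740370) among the 7 and from 1601209 to 23593237 reads (median 8731821) among the 17. The mean log2 total differed by -0.06 (two-sided exact permutation test over 346104 splits, p = 0.893). A count of 3 reads, the limit that a count of 0 allows, corresponded to between 0.127 and 1.87 CPM across libraries and covers counting error only. The 2 sets also overlapped in the number of loci with a read, 1033 to 1308 against 816 to 1347.

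Apart from miR-150-5p, 653 loci were tested. In a fit adjusted for the 4 groups, 220 loci (33.7%) were higher in the 7 libraries and 54 (8.27%) were lower (edgeR's quasi-likelihood test, Benjamini-Hochberg adjusted p under 0.05). Because the sets were chosen by a measured miRNA of these same libraries, these calls order and count the loci and support nothing further. In 90 loci (13.8%) all 7 libraries lay above all 17, and in 0 (0%) did all 7 lie below. The expression filter asked for enough reads in as many libraries as a group holds, so the 7 alone could admit a scarce locus. The counts of higher and of non-overlapping loci include any locus admitted that way. The gains reached further than the losses: 115 higher loci exceeded 2-fold, 46 exceeded 4-fold and 10 exceeded 8-fold, against 9 lower loci beyond 2-fold. The loci that were higher had a median of 9.07 CPM, and 109 of the 220 averaged at least 10 CPM. Of the scarcer ones, 63 lay in the cluster within Sfmbt2 described below, where most rows share reads. Those that were lower were abundant, with a median of 348 CPM. The median log2 fold of all loci was 0.16 by library total, 0.01 with TMM factors and -0.04 with DESeq2. The split of calls shifted with it, to 181 higher and 109 lower with TMM factors and to 175 and 137 with DESeq2, while the 235 loci called both by library total and with TMM factors all kept their direction.

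**Figure D1:**
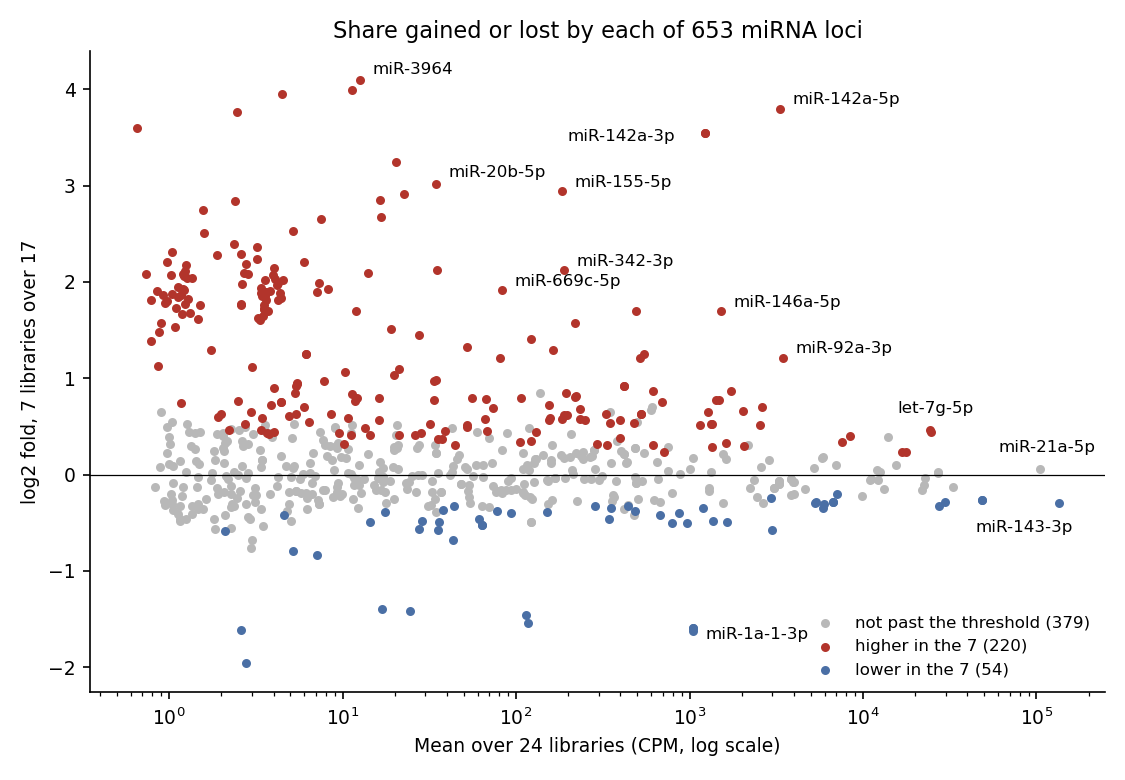
Each point is 1 of 653 loci, placed by its mean CPM over 24 libraries (log axis) and its log2 fold between the 7 libraries and the 17. The 220 higher loci (red) spread up to a log2 fold of 4.10 at miR-3964, and the 54 lower loci (blue) mostly lie close below 0, apart from a group of striated muscle miRNAs such as miR-1a-1-3p.

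The immune cell miRNAs miR-142a, miR-155, miR-342 and miR-146a were each far higher in the 7 libraries. miR-142a-5p, from an intron of Mir142hg at chr11:87756867-87756887 on the plus strand, ran from 6118 through a median of 10348 to 12482 CPM in the 7 libraries. In the 17 it ran from 464 through 742 to 1230 CPM. The lowest of the 7 lay well above the highest of the 17, and the means differed 13.1-fold (log2 fold 3.80, SE 0.12). Its other arm, miR-142a-3p, had means of 3471 ± 702 CPM (SD, n = 7) and 311 ± 137 CPM (SD, n = 17), a log2 fold of 3.54 (SE 0.20). That locus lies opposite miR-142b, and the 2 rows hold nearly the same reads.

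miR-155-5p, in an exon of Mir155hg at chr16:84714143-84714165 on the plus strand, was at 303 to 628 CPM (median 502) in the 7. It was at 48.7 to 83.6 CPM (median 59.6) in the 17, a narrow band, and the log2 fold was 2.94 (SE 0.11). miR-342-3p, in an intron of Evl at chr12:108658680-108658702 on the plus strand, was at 244 to 578 CPM (median 392) against 71.1 to 132 CPM (median 93.2). Its log2 fold was 2.13 (SE 0.12), and its other arm miR-342-5p gave 2.09 (SE 0.22). miR-146a-5p, a brake on inflammatory signalling, was at 1938 to 4039 CPM (median 2891) against 623 to 1453 CPM (median 894), a log2 fold of 1.70 (SE 0.11). In none of these did the sets overlap.

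**Figure D2:**
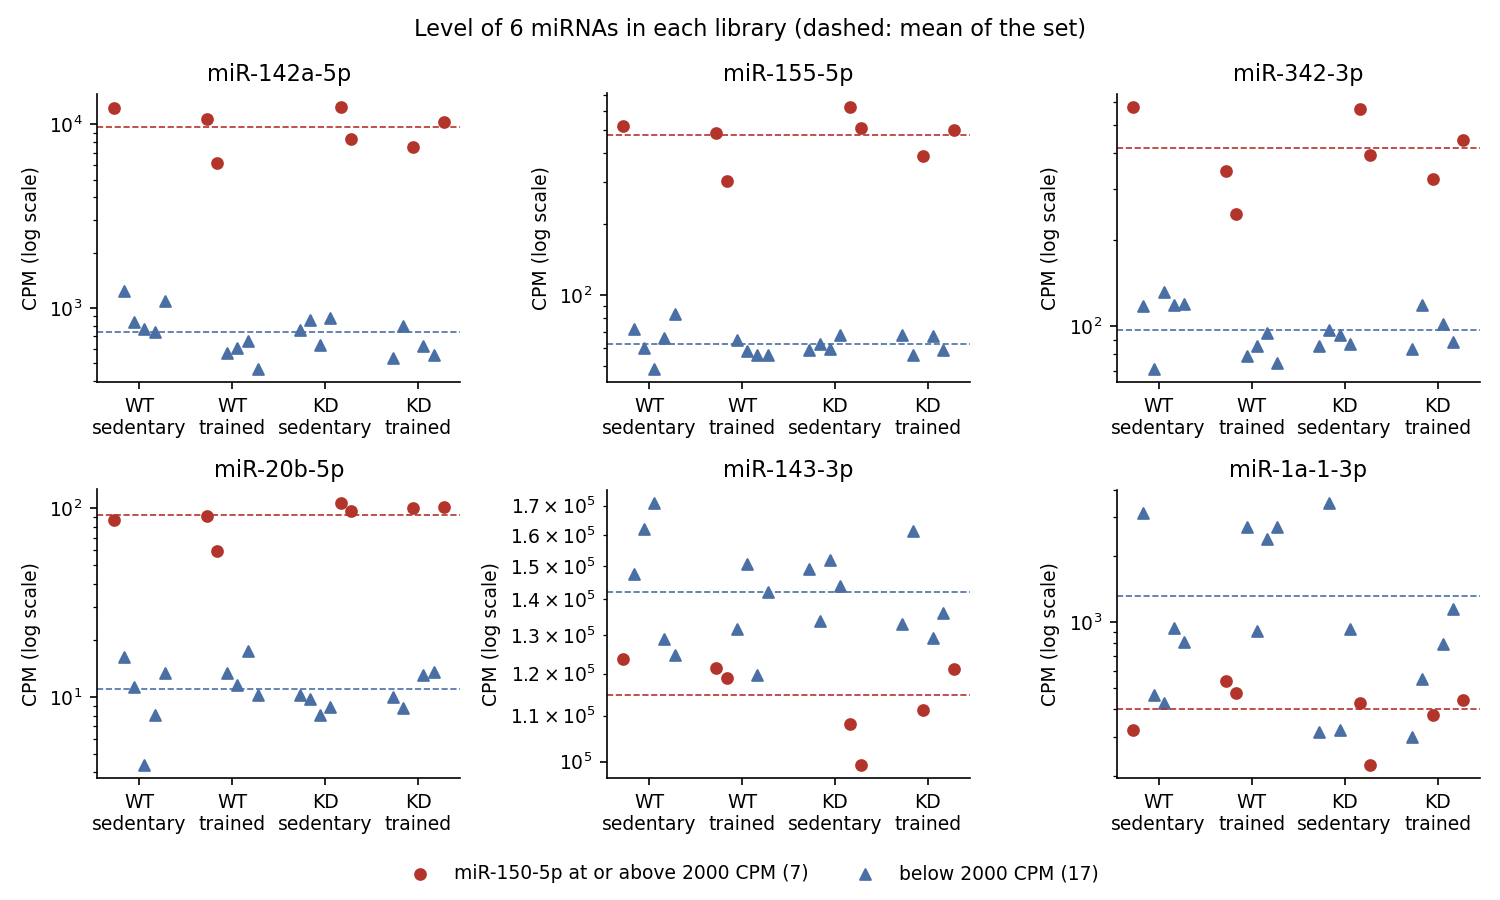
Each panel shows the CPM (log axis) of 1 miRNA in the 24 libraries by group, with the 7 libraries chosen by miR-150-5p as red circles, the 17 others as blue triangles and dashed lines at the set means. For miR-142a-5p, miR-155-5p, miR-342-3p and miR-20b-5p every red point lies above every blue one, while for miR-143-3p and miR-1a-1-3p the sets overlap.

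miR-150-3p, the other arm of the hairpin used to choose the sets, followed it at 35.0 to 68.1 CPM against 4.37 to 8.10 CPM. The lymphocyte list includes miR-150-3p, which is tied to the choice of the sets. It also counts miR-142b beside miR-142a-3p, and both loci of miR-181a-5p. Its scarce miR-155-3p, at 1.05 to 2.48 CPM in the 7 against 0 to 0.616 CPM in the 17, could pass the filter through the 7 alone. Of its 20 tested loci, 13 were higher and 0 lower, with a median log2 fold of 1.05, beside 33.7% higher and a median of 0.16 over all loci. That median ranged widely with which libraries and loci entered, down to 0.46 in trained libraries only. The 7 loci that did not pass were all of the miR-181 family, which also acts in lymphocyte development. miR-181a-5p was modestly higher, at 1700 ± 189 CPM (SD, n = 7) against 1198 ± 290 CPM (SD, n = 17) for its first locus, whereas miR-181d-5p, at 257 against 274 CPM, was not. Summed with miR-150-5p, the list's rows made up 2.19 to 3.91% of the total count in the 7 libraries and 0.523 to 0.873% in the 17, with the reads shared by miR-142a-3p and miR-142b counted in both rows.

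Markers of other blood cells passed no threshold in either direction. Of 5 myeloid loci (miR-223, miR-511 and miR-147), 0 were called by edgeR's test and 0 by DESeq2, and 1 had an unadjusted p under 0.05. Their summed level spanned 311 to 445 CPM in the 7 libraries, against 228 to 442 CPM in the 17. miR-223-3p, the main granulocyte and monocyte marker, was at 197 ± 22.1 CPM (SD, n = 7) and 174 ± 30.8 CPM (SD, n = 17). Of 5 red blood cell loci, 0 were called by edgeR's test and 0 by DESeq2, and 1 had an unadjusted p under 0.05. The erythroid miR-451a ranged over 950 to 7556 CPM in the 7 libraries, against 896 to 4094 CPM among the 17, and its spread within each set exceeded the difference between them. The median log2 fold of the myeloid list was 0.13 by library total and turned to -0.02 with TMM factors and -0.06 with DESeq2.

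The miR-17-92 cluster and its paralogs, which promote proliferation and are active in dividing lymphocytes, gained share almost throughout. Of 24 tested loci on that list, 22 were higher and 0 lower, with a median log2 fold of 0.92, beside 33.7% higher and a median of 0.16 over all loci. All 24 were above 0. The X-linked cluster from miR-106a to miR-363 (chrX:52741697-52742563, minus strand, no host gene) stood out within it. All 7 of its tested loci were higher, 6 of them without overlap between the sets, and their median log2 fold was 2.85. Among these, miR-18b-5p and miR-363-5p reached at most 1.53 and 1.21 CPM in the 17 and could pass the filter through the 7 libraries alone. miR-20b-5p was at 59.4 to 107 CPM (median 97.2) in the 7 libraries, against 4.37 to 17.5 CPM (median 10.3) among the 17, a log2 fold of 3.02 (SE 0.16). miR-363-3p, which carries the miR-92 seed AUUGCAC, was at 27.4 to 84.2 CPM against 3.39 to 13.1 CPM. miR-106a-5p was at 26.4 to 48.5 CPM against 4.10 to 7.67 CPM, and miR-18b-5p at 6.20 to 9.06 CPM against 0 to 1.53 CPM. No other locus of the table has the mature sequence of any of these 4, whereas miR-19b-3p and miR-92a-3p have a copy on chromosome 14.

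The paralogous cluster on chromosome 14 in Mir17hg was more abundant and shifted less: 9 of 10 loci were higher, with a median log2 fold of 0.91. miR-92a-3p had the larger level there, 5666 ± 1293 CPM (SD, n = 7) against 2524 ± 746 CPM (SD, n = 17), and miR-19a-3p the larger log2 fold, 1.40 (SE 0.12). The cluster in Mcm7 on chromosome 5, with miR-106b, miR-93 and miR-25, had 6 of 6 loci higher and a median of 0.61. Within 1 seed family the folds differed by cluster: among the AAAGUGC miRNAs printed above, log2 folds were 3.02 and 2.85 on chromosome X, 0.65 and 0.54 on chromosome 14, and 0.56 and 0.29 on chromosome 5.

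**Figure D3:**
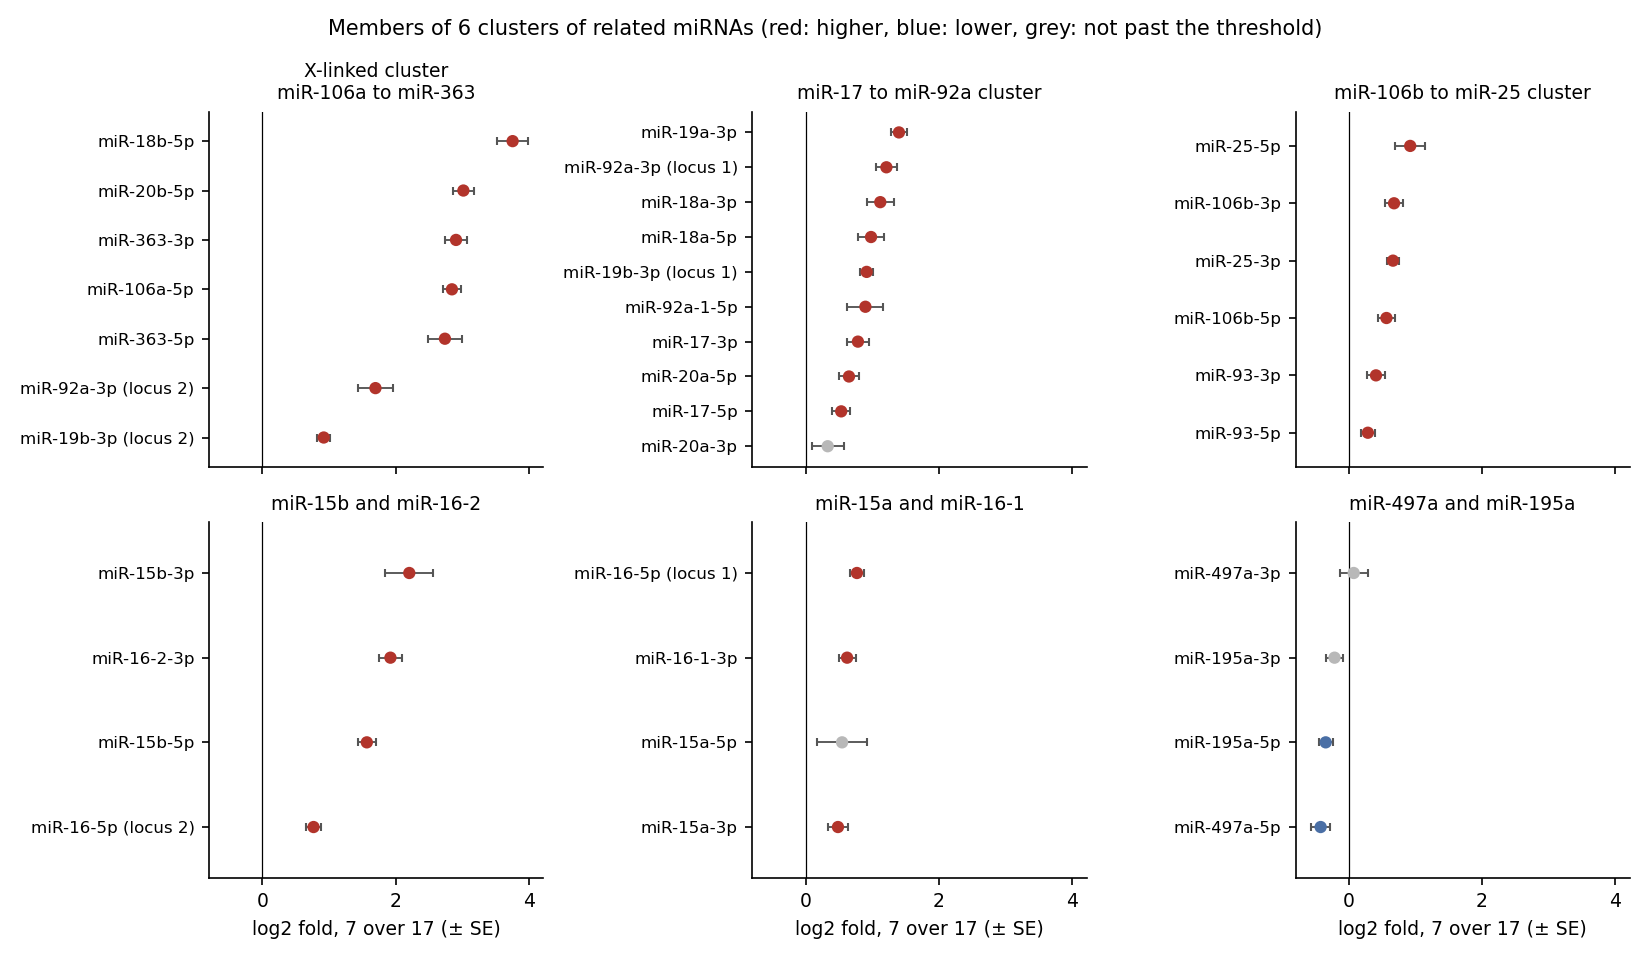
Each panel shows the tested loci of 1 cluster with the log2 fold between the 7 libraries and the 17 and its SE as a bar. The locus miR-18b-5p was scarce, at 0 to 1.53 CPM in the 17. Loci of the X-linked cluster reach 3.76 (miR-18b-5p), those of the miR-17 cluster stay at or below 1.40, and the lower-right panel shows miR-195a-5p and miR-497a-5p below 0 while their seed relatives miR-15b-5p and miR-16-5p lie above 0.

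The AGCAGCA family, printed above and known for restraining the cell cycle, split by locus. miR-15b-5p, from an intron of Smc4, was at 281 to 490 CPM (median 421) in the 7 libraries, against 88.8 to 204 CPM (median 144) among the 17, without overlap, a log2 fold of 1.57 (SE 0.14). miR-16-5p, in the row of its Dleu2 locus, was at 1683 to 2262 CPM against 857 to 1834 CPM, a log2 fold of 0.77 (SE 0.11). miR-195a-5p was at 766 to 1181 CPM against 968 to 1574 CPM, a log2 fold of -0.35 (SE 0.11). miR-497a-5p, its neighbour on chromosome 11, gave -0.42 (SE 0.15). In 2 more families members were called in both directions. miR-30e-5p (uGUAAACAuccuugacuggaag, Nfyc intron) was higher, 10095 against 7715 CPM, while miR-30a-5p (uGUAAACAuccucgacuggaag, intergenic) was lower, 26063 against 31420 CPM. miR-34a-5p, a p53 target, was higher, 297 against 206 CPM, while miR-34c-5p was lower, 297 against 377 CPM.

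The longest run of gains lay in an intron of Sfmbt2 on chromosome 2 (chr2:10467285-10517137, plus strand), where 47 hairpins of the miR-297, miR-466, miR-467 and miR-669 families stand in tandem. All 66 tested loci there were higher, with a median log2 fold of 1.90 and a range of 1.39 to 2.67, and in 48 of them the sets did not overlap. Most were near the limit of detection: 63 of 66 averaged under 10 CPM, the scarcest 0.740 CPM. Scarce loci could pass the expression filter through the 7 libraries alone, so the count of 66 of 66 may be partly set by that filter. Copies are nearly identical and 50 of the 66 share reads with another locus, so the rows held 25 distinct sets of reads and the origin of single loci is uncertain. Their sum does not depend on that assignment within the cluster: it was 428 to 855 CPM (median 596) in the 7 libraries, against 135 to 198 CPM (median 149) among the 17, a 4.03-fold difference of means. miR-669c-5p, the most abundant, was at 129 to 231 CPM against 29.0 to 63.4 CPM. miR-467c-5p was at 26.6 to 64.6 CPM against 3.77 to 9.37 CPM, and miR-467e-5p at 44.9 to 120 CPM against 11.4 to 26.1 CPM. This cluster supplied 30% of all higher loci. Outside it 154 of 587 loci (26.2%) were higher.

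The largest log2 folds of all, 4.10 (SE 0.22) for miR-3964 and 3.99 (SE 0.42) for miR-3969, belonged to scarce loci whose letters nearly repeat miR-142a-5p.
miR-3964: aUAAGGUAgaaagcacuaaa
miR-3969: cCCUAAAGuagaaaucacua
Without gaps, 17 of 20 aligned bases of miR-3964 and 17 of 19 of miR-3969 match miR-142a-5p, the differences being A6G, C20A and U21A for the former and A2C and G14U for the latter (base of miR-142a-5p, its position from the 5′ end, base of the other). The median level of miR-3964 was 0.410% of miR-142a-5p in the 7 libraries and 0.335% in the 17, and that of miR-3969 was 0.159% and 0.139%. Both ratios overlapped between the sets. Whether their counts are reads of miR-142a-5p was not tested.

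Several loci outside the lists were singled out after their values were seen. miR-211-5p, a relative of miR-204 that sits in Trpm1 and is known from melanocytes, had means of 13.3 CPM in the 7 and 0.845 CPM in the 17. Its log2 fold was 3.95 (SE 0.21), and the sets did not overlap. Both arms of miR-130b were higher, miR-130b-5p at 18.4 against 3.08 CPM and miR-130b-3p at 12.2 against 2.24 CPM. miR-7a-5p, in its row within Hnrnpk, was at 919 against 391 CPM. miR-128-3p, abundant in brain and also made in lymphoid cells, was at 281 against 115 CPM in its R3hdm1 row. miR-33-5p, which lies in Srebf2 and targets cholesterol export, was at 49.6 against 18.7 CPM.

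By difference in mean CPM, let-7g-5p and let-7i-5p, of a family that favours differentiation, came next after miR-142a-5p. let-7g-5p had a median of 25930 CPM in the 7 and 21345 CPM in the 17, and let-7i-5p one of 29039 and 21750 CPM. Their means were 7824 and 7792 CPM apart, next to 8929 CPM for miR-142a-5p. Their log2 folds were 0.45 (SE 0.09) and 0.46 (SE 0.10), and the sets overlapped. Of 26 let-7 loci 8 were higher and 0 lower, a share near the 33.7% higher over all loci. The list's median was 0.17 by library total, near the 0.16 of all loci, and turned to -0.03 with DESeq2. Under DESeq2 let-7g-5p had a log2 fold of 0.25 (adjusted p = 0.0572) and did not pass. miR-21a-5p and miR-29a-3p also gained 6045 and 3581 CPM on average, but neither passed the threshold, and miR-21a-5p turned to -0.09 with TMM factors.

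The 9 loci lower by more than 2-fold were all of the striated muscle list, described further on, and the remaining losses were smaller in fold. Both lists of vessel miRNAs had 2 of 4 loci lower and 0 higher, beside 8.27% lower over all loci. miR-143-3p, the smooth muscle miRNA and the most abundant locus, was at 99315 to 123766 CPM (median 118842) in the 7 libraries, against 119574 to 171049 CPM (median 142105) among the 17. Its mean fell by 27252 CPM, at a log2 fold of -0.30 (SE 0.07). Of the 7 libraries, 3 exceeded the lowest of the 17. Its other arm miR-143-5p gave -0.50 (SE 0.13). The other smooth muscle loci, miR-145a-5p at -0.13 (SE 0.13) and miR-145a-3p at -0.04 (SE 0.13), did not pass. Of the endothelial list, miR-126a-3p, from an exon of the endothelial gene Egfl7, was lower at -0.26 (SE 0.10), and its row shares reads with miR-126b-5p opposite. That call was narrow (adjusted p = 0.0438 in edgeR's test) and was lost on leaving out any 1 of 11 libraries, with adjusted p of 0.0517 to 0.148. Its other arm miR-126a-5p, at 3772 against 3853 CPM, gave -0.04 (SE 0.10) and did not pass. The miR-126b-3p row held nearly the same values as miR-126a-5p, so the 4 endothelial rows are fewer distinct sets of reads. miR-99a-5p, at 23312 ± 2900 CPM (SD, n = 7) against 29014 ± 5997 CPM (SD, n = 17), lost its call without any 1 of 6 libraries.

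Stromal miRNAs shifted in the same direction: all 8 tested loci of miR-199 and miR-214 were below 0. Of these, 3 were called lower, beside 8.27% lower over all loci, each a copy of miR-199a-3p or miR-199b-3p with log2 folds of -0.28 to -0.30. Both loci of miR-199a-3p have the same mature sequence, as do those of miR-199a-5p, so the list holds fewer distinct miRNAs than loci. The miR-199b-3p row also nearly equalled the first miR-199a-3p row, with means of 5859 and 5854 CPM in the 7. The 3 calls may therefore not be separate miRNAs. Of 16 epithelial loci, 6 were lower and all 16 were below 0, beside the same 8.27%. miR-200b-3p was at 1791 to 2603 CPM (median 2302) against 2445 to 4876 CPM (median 3364), a log2 fold of -0.57 (SE 0.11), and miR-200c-3p gave -0.49 (SE 0.11). Of 23 adipocyte loci, 4 were lower and 0 higher, beside 8.27% lower and 33.7% higher over all loci, with a median of -0.18. The lower ones were both loci of miR-103-3p, a regulator of insulin sensitivity, at -0.29 (SE 0.08), miR-196b-5p at -0.46 (SE 0.15) and miR-193a-5p at -0.37 (SE 0.14). In Mest, an imprinted gene linked to adipocyte size, miR-335-5p gave -0.68 (SE 0.23) and miR-335-3p -0.56 (SE 0.18). The call of miR-335-5p ended without KD sedentary replicate 5 or replicate 6 (edgeR adjusted p = 0.0650 and 0.0587), and its log2 fold was -0.04 in WT libraries and -0.34 in trained ones. miR-708-3p, at 757 ± 124 CPM (SD, n = 7) against 1054 ± 148 CPM (SD, n = 17), gave -0.50 (SE 0.11). Of 67 loci of the imprinted Dlk1-Dio3 region, 63 were below 0 but only 3 were called lower, beside 8.27% lower over all loci.

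Striated muscle miRNAs had the lowest folds of all, and their spread lay in the 17 libraries. miR-1a-1-3p was at 223 to 539 CPM (median 426) in the 7 libraries, against 301 to 3496 CPM (median 913) among the 17, a log2 fold of -1.62 (SE 0.46). Of 10 tested loci on the list 9 were lower, beside 8.27% over all loci, with a median of -1.57, and the sets overlapped in every one. The 9 include miR-1a-2-3p, a copy of miR-1a-1-3p, and miR-133a-1-3p, a copy of miR-133a-2-3p. Also among them, miR-1b-5p holds the same values as miR-1a-2-3p, so they are fewer distinct miRNAs than loci. Summed over the list's rows, with shared reads counted in each row, the level was 757 to 1738 CPM in the 7. Among the 17, 5 libraries lay within that range and 12 lay above it, up to 11497 CPM. miR-133a-2-3p was at 28.3 to 73.0 CPM against 23.9 to 481 CPM. miR-206-3p, at -1.42 (SE 0.51), and miR-133b-3p, at -1.40 (SE 0.51), each lost the call without any 1 of 4 libraries. The part of muscle content in the difference was not tested.

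**Figure D4:**
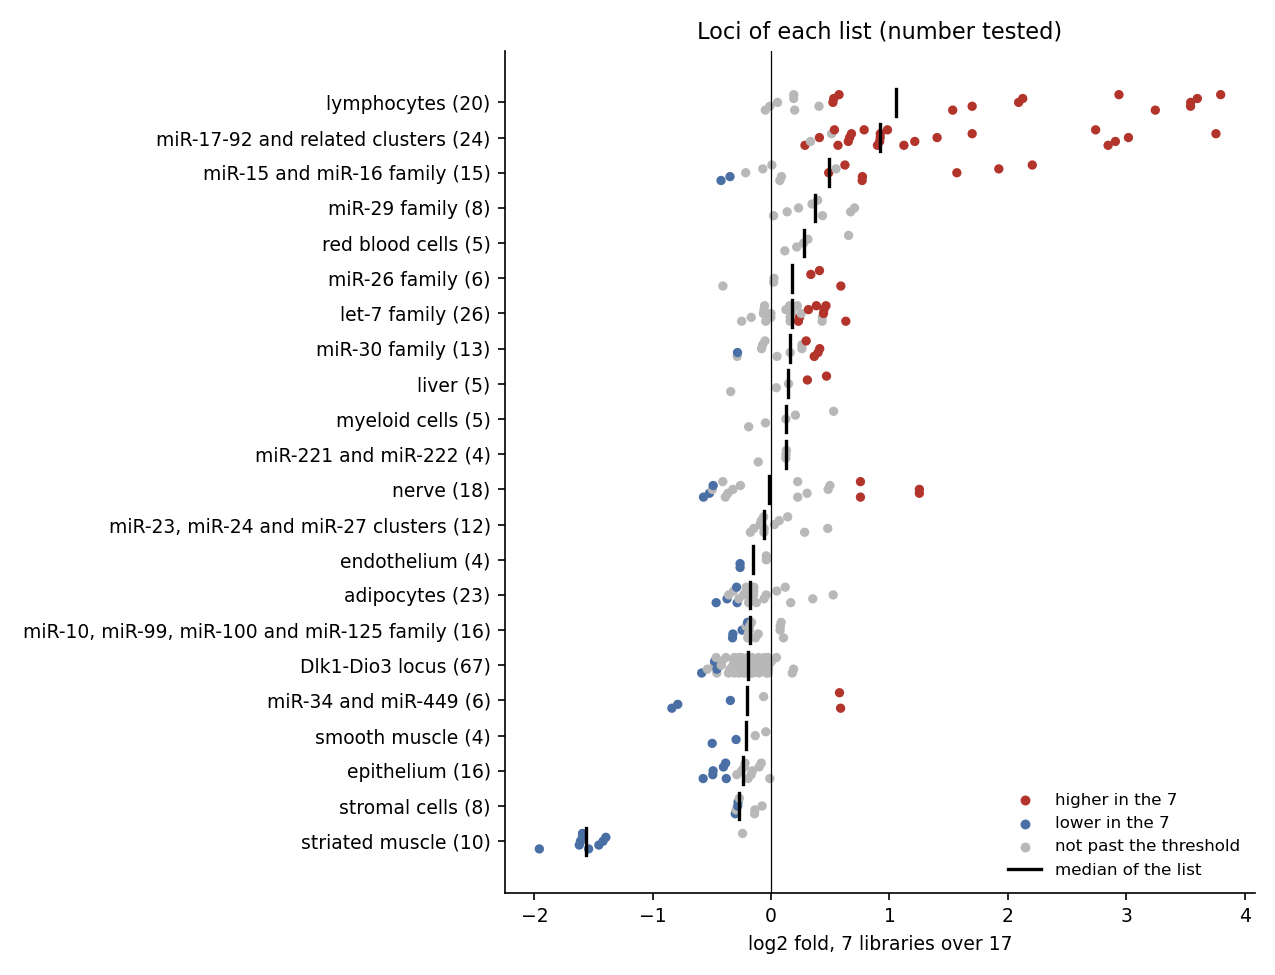
Each row is a list of loci grouped by cell type, family or genomic region, chosen with earlier results of these data known. It shows the number tested, the log2 fold of each locus between the 7 libraries and the 17, and a black bar at the median. The lymphocyte row includes miR-150-3p, the other arm of the hairpin that chose the sets. Lymphocyte and miR-17-92 loci lie farthest to the right (medians 1.05 and 0.92) and striated muscle farthest to the left (-1.57), while myeloid and red blood cell loci hold no red or blue point.

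The counts of the remaining lists stand beside 33.7% higher and 8.27% lower over all loci. In the miR-29 list, 8 loci were all above 0, but 0 passed in edgeR's test or DESeq2 and 1 had an unadjusted p under 0.05. Of 12 loci of the miR-23, miR-24 and miR-27 clusters edgeR's test called 0 (1 at an unadjusted p under 0.05) and DESeq2 5, and of 4 of miR-221 and miR-222 edgeR called 0 (0 unadjusted) and DESeq2 1. The list of miR-10, its relatives miR-99 and miR-100, and miR-125 had 4 of 16 lower and 0 higher, the miR-26 list 3 of 6 higher, and the miR-30 list 4 higher and 1 lower of 13. Of 18 nerve loci 4 were higher, all rows of miR-219a and the opposite miR-219c, and 3 were lower, namely miR-338-5p and 2 of the 3 tested loci of miR-9-5p. The third of these, at a log2 fold of -0.39, did not pass (edgeR adjusted p = 0.0603). Of 5 liver loci 2 were higher, among them miR-192-5p at 721 against 573 CPM, and miR-122-5p did not pass. Across 224 hairpins with both arms tested, 196 had arms of the same sign, 56 had both arms higher, 7 had both lower and 0 had arms called in opposite directions. The log2 folds of the arms correlated across hairpins (Pearson's r = 0.94, n = 224), which share libraries and hairpin and are not independent replicates. Near-identical copies in the Sfmbt2 cluster, many of which share reads, each count as a hairpin here, also among those with both arms higher.

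The fold between the sets was also fitted within each genotype and training class. For loci whose sets do not overlap, that choice fixes the direction in every subset, so their values are given for size. The log2 fold of miR-142a-5p was 3.81 (SE 0.18) in WT libraries, 3.79 (SE 0.15) in KD, 3.73 (SE 0.17) in sedentary and 3.85 (SE 0.16) in trained. miR-155-5p gave 2.83 (SE 0.17), 3.02 (SE 0.14), 3.11 (SE 0.16) and 2.79 (SE 0.15) in that order. Of the 54 lower loci, which were chosen over the same libraries, 51 could be fitted in all 4, and all 51 were below 0 in each. The test of whether the difference between the sets itself differed by genotype called 0 of 653 loci (0%) in edgeR's quasi-likelihood test and 0 in DESeq2. In all, 61 loci had an unadjusted p under 0.05, where evenly spread p-values would give 32.65, and the lowest adjusted p was 0.307. For training 0 of 653 loci (0%) were called by edgeR and 0 by DESeq2, 86 had an unadjusted p under 0.05, and the lowest adjusted p was 0.118. Leaving out WT sedentary replicate 1, the only such library of its group, gave 7 calls for training.

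The 7 libraries also differed among themselves in the 90 loci without overlap. Of these loci, 48 lay in the Sfmbt2 cluster, where most rows share reads, and 9 were on the lymphocyte list. WT trained replicate 2 had the lowest miR-150-5p and was the lowest of the 7 in 57 of the 90 loci without overlap and the highest in 0. KD sedentary replicate 5 had the highest miR-150-5p and was the highest in 41. The log2 levels of 8 miRNAs were set against that of miR-150-5p within each set, 16 relations in all. Because miR-150-5p chose the sets and its range in each is limited by that choice, these correlations are a description, with no test. In the 7 libraries Pearson's r was 0.96 for miR-155-5p, 0.92 for miR-342-3p and 0.88 for miR-142a-5p, and Spearman's rho was 0.89, 0.89 and 0.82. Without the 2 libraries farthest from the median of miR-150-5p, r was 0.78, 0.86 and 0.66.

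Over the same 7 libraries r was 0.42 (rho 0.43) for miR-142a-3p and -0.16 (rho -0.04) for the smooth muscle miR-143-3p. Without the 2 farthest libraries r for miR-142a-3p turned to -0.44. In the 17, miR-142a-3p had the largest r of the 8, at 0.40 (rho 0.36). For miR-155-5p r was 0.12 (rho 0.16) there, within a band of 48.7 to 83.6 CPM.

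**Figure D5:**
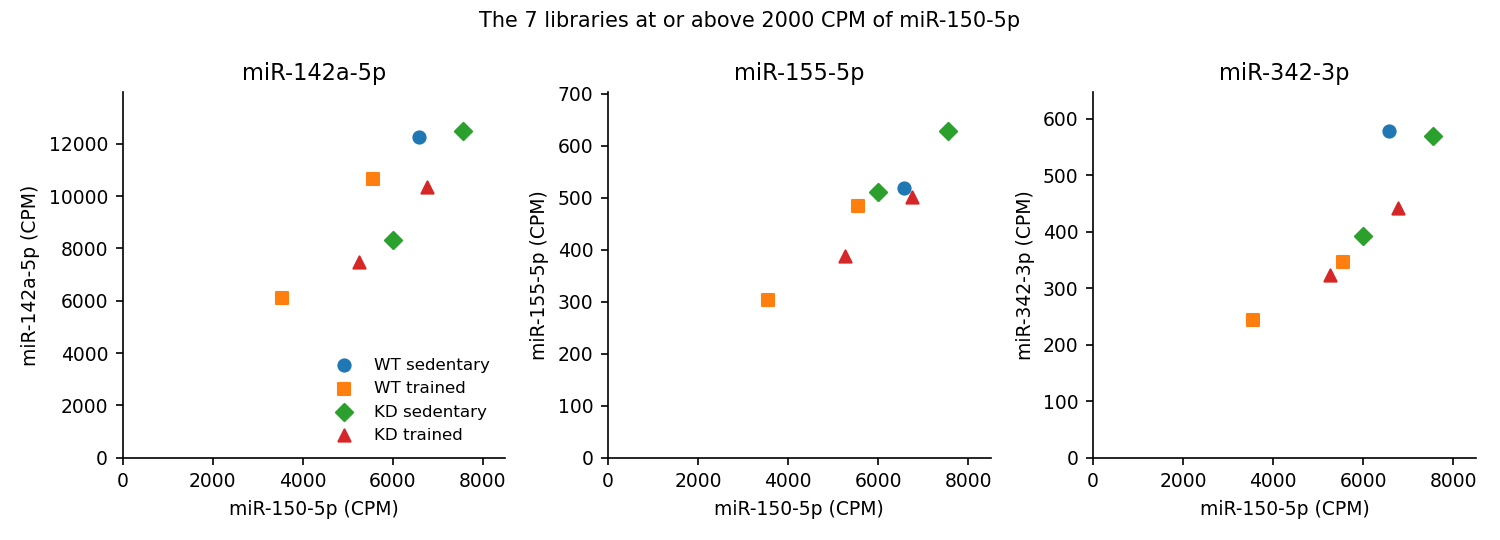
Each panel plots 1 miRNA against miR-150-5p, both in CPM on linear axes from 0, in the 7 libraries, with marker shape and colour by group. The library at 3547 CPM of miR-150-5p (WT trained replicate 2) is the lowest in all 3 panels, and the library at 7557 CPM (KD sedentary replicate 5) is highest for miR-142a-5p and miR-155-5p.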

How the data were processed

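Small RNA from 24 libraries was measured by sequencing. Total RNA was prepared with TRIzol and the NEBNext small RNA kit, per the labels' protocols. The submitters' processing notes list the build mm10 and the tools CASAVA (version 1.8.2), Trim Galore, featureCounts and Bowtie2. Strand and multiple-mapping settings: not given in the sources used here. Raw counts were deposited by the authors per mature miRNA locus (2045 rows, 344 with no read), 1 column per library.

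Here loci were named from RefSeq (GRCm38.p6) for 1674 rows and by GENCODE hairpin for 371. Counts were divided by library totals (factors of 1), filtered with filterByExpr, which kept 654 loci, and fitted in edgeR 4.0.16 (glmQLFit, glmQLFTest) with the 4 groups and the set as terms. miR-150-5p was not tested. P-values were adjusted by Benjamini-Hochberg. DESeq2 1.42.0, TMM factors, other filters, merged loci, subsets and leaving out each library were alternatives. The version with TMM factors was tested on simulated data of independent loci, and the main fit by library totals was not. Of the rows, 289 share reads with another locus (same mature sequence, or at least 10 bases of overlap on the opposite strand).

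The named loci were the 15 largest and 12 lowest log2 folds among called loci averaging at least 10 CPM, the 8 largest gains and 8 largest losses in CPM, the other arms of these, and list members. The members and lists were chosen with earlier results of these data known. The labels do not say that replicates are separate mice, and p-values then reflect library-to-library spread, which may be technical. Permutation tests planned for correlations with miR-150-5p are not reported, because that miRNA chose the sets.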

Additional observations from a re-analysis of the deposited data

Results flagged for a closer look

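Of 46 groups of values checked with Dixon's ratio, 3 had a sample far from the others, and chance gives about 1 in 20. Within the 7 libraries, miR-21a-5p was highest in KD sedentary replicate 6, at 146960 CPM, with the next library at 111455 CPM. Also within the 7, miR-200a-3p was highest in KD sedentary replicate 5, at 11591 CPM, with the next at 8637 CPM. Without that library miR-200a-3p passed the threshold as lower in the remaining 6 libraries of the set (edgeR adjusted p = 0.0262). With all libraries kept, it also passed as lower with TMM factors (log2 fold -0.37) and with DESeq2 (-0.42). In the WT sedentary group, the deepest library had 20894237 reads and the next 6104042.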

How the results depend on the processing

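No paired analysis was possible because replicate numbers follow accession order and pair no libraries. The count of higher loci was 109 with a mean of at least 10 CPM, 111 in wild type only, 146 in sedentary only and 120 in trained only, each with fewer loci or libraries, and 207 to 242 without each library in turn. The count of lower loci was 109 with TMM factors, 137 with DESeq2, 18 in kinase dead only, 22 in sedentary only and 34 in trained only, and 34 to 61 without each library, the lowest being without WT sedentary replicate 1; the cause was not tested. The interaction with genotype gave 3 calls with no filter, and that with training 0 to 7 without each library (7 without WT sedentary replicate 1, 1 without KD trained replicate 1).

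Some log2 folds turned sign. miR-22-3p gave 0.18 in wild type only, 0.024 in trained only and -0.27 to 0.038 without each library. miR-21a-5p gave -0.089 with TMM factors, -0.13 with DESeq2, -0.047 in wild type only and -0.026 (without KD sedentary replicate 6) to 0.11 without each library. miR-148a-3p gave 0.093 in wild type only, and miR-451a -0.19 in trained only and -0.12 (without WT sedentary replicate 1) to 0.45 without each library. None of these had passed the threshold. List medians turned for liver (-0.00054 with TMM factors, -0.044 with DESeq2, -0.0094 in sedentary only), for let-7 (-0.026), miR-30 (-0.030) and miR-26 (-0.0084) with DESeq2, for miR-34 and miR-449 with no filter (0.042), and for Dlk1-Dio3 in kinase dead (0.078) and sedentary only (0.22). With TMM factors the correlations of miR-143-3p in the 7 (0.0063) and miR-223-3p in the 17 (-0.16) turned. The cause was not tested. The calls of the 15 largest gains held without each library in turn. They were picked as the largest from these same libraries, so this is a description and supports nothing further. Loci near 1 CPM rest on few reads in the shallowest library, of 1601209 reads.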
